A study of Mus musculus with 5480 samples.

Results

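Proliferating fibroblasts of the developing mouse lung were the 157 cells, among 5480 in the whole series, that the submitters had given the cell subtype label Proliferating fibroblast. The cells came from distal lung before birth, on embryonic day 18.5 (E18.5), or after it, on day 1 (P1), day 7 (P7) or day 21 (P21). Each group had 1 female and 1 male mouse. At P7 there were 2 groups, one labelled normal (written here as normal air) and one labelled hyperoxia. The strain and the strength and length of the hyperoxia were not given in the sources used here. The mice of all the other groups carried the label normal. The same 8 mice gave 2868 non-proliferating fibroblasts for comparison. These were fibroblast precursors at E18.5 and early alveolar and early adventitial fibroblasts at P1 and P7. Each cell had been sorted by fluorescence into a plate and sequenced on its own.

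Fibroblasts build the interstitium of the lung. They lay down collagen and elastic fibres while airspaces divide, and in the distal lung an alveolar type, which carries lipid droplets and Tcf21, is told from an adventitial type around airways and vessels. A dividing cell copies its DNA in S phase under E2F transcription factors. It builds the spindle in G2 and mitosis under B-MYB-FOXM1 complexes, which bind the cell-cycle homology region (CHR) in promoters. The p53 protein answers DNA damage by inducing Cdkn1a, an inhibitor of cyclin-dependent kinases.

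The promoters of 4 mitotic and 2 replication genes with a higher mean level in the proliferating cells are shown because the division genes differed in these short elements. Each is the 160 bases before the RefSeq start of the gene in mouse build GRCm38.p6, read 5′ to 3′ along the gene, with CHR elements, CCAAT boxes and E2F sites in capitals. The genes are Mki67 at chr7:135716380-135716539 on the minus strand, Top2a at chr11:99024190-99024349 on the minus strand and Cdk1 at chr10:69352913-69353072 on the minus strand. The others are Ube2c at chr2:164769769-164769928 on the plus strand, Mcm6 at chr1:128359706-128359865 on the minus strand and Mcm5 at chr8:75109349-75109508 on the plus strand. Mki67 and Top2a are shown as division markers of the label. The others were chosen by mean CPM from list genes whose bases shown held a CHR (Cdk1, Ube2c) or an E2F site (Mcm6, Mcm5). CPM is the reads of a gene scaled to the total of its library, without correction for gene length.
Mki67: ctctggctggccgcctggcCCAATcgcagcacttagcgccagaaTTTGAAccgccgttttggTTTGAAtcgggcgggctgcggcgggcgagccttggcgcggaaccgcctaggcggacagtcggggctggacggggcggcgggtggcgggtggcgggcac
Top2a: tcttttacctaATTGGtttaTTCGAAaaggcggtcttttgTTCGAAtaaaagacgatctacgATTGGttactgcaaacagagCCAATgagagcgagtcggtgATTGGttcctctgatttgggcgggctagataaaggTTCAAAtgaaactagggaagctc
Cdk1: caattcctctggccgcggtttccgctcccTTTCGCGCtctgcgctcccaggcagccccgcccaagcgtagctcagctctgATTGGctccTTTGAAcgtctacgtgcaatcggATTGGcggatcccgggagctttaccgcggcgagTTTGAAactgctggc
Ube2c: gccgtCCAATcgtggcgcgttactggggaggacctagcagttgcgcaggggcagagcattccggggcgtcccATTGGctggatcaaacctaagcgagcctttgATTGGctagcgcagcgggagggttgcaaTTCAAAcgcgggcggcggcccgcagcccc
Mcm6: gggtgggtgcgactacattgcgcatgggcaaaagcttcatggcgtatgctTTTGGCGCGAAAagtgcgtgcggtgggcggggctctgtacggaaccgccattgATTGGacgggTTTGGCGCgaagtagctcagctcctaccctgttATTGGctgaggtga
Mcm5: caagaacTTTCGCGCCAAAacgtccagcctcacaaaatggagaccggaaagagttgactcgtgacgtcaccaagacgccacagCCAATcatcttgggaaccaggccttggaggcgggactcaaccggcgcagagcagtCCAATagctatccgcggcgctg
The 4 mitotic promoters each held at least 1 CHR and 1 CCAAT. The 2 replication promoters held E2F sites and CCAAT boxes but no CHR in these letters. A CHR in Cdk1 and Ube2c and an E2F site in Mcm6 and Mcm5 were conditions of the choice. Cdk1 held an E2F site as well. In Top2a the last base of the CHR letters lay 135, 115 and 18 bases before the start. In Mcm6 the last base of the E2F letters lay 103, 99 and 40 bases before it.

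The same letters were counted in 300-base windows, from 250 bases before to 50 after each start, for 32851 starts. The letters were TTTGAA or TTCGAA for the CHR, CCAAT for the CCAAT box, and TTTGGCGC, TTTCCCGC, TTTGCCGC or TTTCGCGC for E2F, each on both strands. E2F letters on opposite strands can overlap one another, as they do in Mcm6 and Mcm5. CHR letters were in 79.5% of 39 windows of mitotic genes (37 of 44 genes matched), in 17.1% of 35 windows of replication genes (28 of 33 matched) and in 19.2% of all windows. E2F letters ran the other way, with 5.13% of mitotic windows, 40.0% of replication windows and 2.26% of all windows. CCAAT was in 76.9% of the mitotic, 60.0% of the replication and 37.4% of all windows. Of 14 windows of fibrillar matrix genes (11 of 19 matched), 28.6% held a CHR, 21.4% a CCAAT and 0.0% an E2F site. A match of letters is a description and not evidence that a factor was bound.

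The 157 cells had between 53186 and 3196566 reads each, with a median of 901519. Summed over cells, the E18.5 mice gave 35 and 28 proliferating fibroblasts (female, then male, the order used throughout). P1 mice gave 6 and 6, P7 mice 17 and 6 in normal air, hyperoxia mice 23 and 36, and P21 mice 0 and 0. The summed libraries held between 3345150 and 40791755 reads. Of the 157 cells, 5 came from a CD31 sort, which selects for an endothelial surface protein, and the rest from a mesenchymal sort. Female E18.5 and P1 cells shared a sequencing run, apart from 2 CD31-sorted E18.5 cells, and so did male E18.5, P1 and P7 cells. Female P7 cells and the hyperoxia mice were in other runs. Hyperoxia and sequencing run cannot be told apart. Levels below are CPM after scaling the summed libraries by trimmed means, and the mouse, not the cell, is the replicate.

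The division markers fitted the label. Mki67, the antigen Ki-67, stood at 810.9 and 1274 CPM in the E18.5 mice, 415.4 and 1072 in the P1 mice, 543.3 and 715.8 in the P7 air mice and 402.1 and 398.9 in the hyperoxia mice, against 0.838 to 10.7 CPM in the other fibroblasts of the same mice. Top2a, the topoisomerase that untangles chromosomes before they part, stood at 915.3, 1601, 706.1, 1568, 920.8, 2105, 972.4 and 765.9 CPM in the same order. Every proliferating library lay above every library of the other fibroblasts for both genes. After thinning each cell to 100000 reads, 94.2% of proliferating fibroblasts (145 of 154) and 2.92% of the others (81 of 2772) had a read of Mki67. Mki67 or Top2a was seen in 97.4% (150 of 154) and 5.74%. The labels name no identifiers of single molecules, so thinned shares count reads and not molecules. Such shares pool the cells of all these mice and do not show the spread between mice.

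Fibroblast markers were present. Col1a1, a chain of type I collagen, was seen in all 154 thinned proliferating fibroblasts and 99.8% of the others. Its level was 1636 and 1992 CPM in the E18.5 mice, 6996 and 5898 in the P1 mice, 5207 and 6471 in the P7 air mice and 4680 and 6136 in the hyperoxia mice. Pdgfra, the receptor of platelet-derived growth factor A, was at 94.2 and 76.5, then 2.55 and 81.5, then 21.2 and 70.3, then 82.6 and 48.1 CPM. It was seen in 42.2% of proliferating and 38.2% of other fibroblasts, and in 85.7% of cells labelled proliferating myofibroblast. Tcf21, a transcription factor of alveolar fibroblasts, was in 92.2% of proliferating fibroblasts, 92.8% of the others and 25.9% of proliferating myofibroblasts. It was in 95.3% of early alveolar and also in 78.4% of early adventitial fibroblasts. Tgfbi, a secreted matrix protein, separated the dividing types in the other direction, at 0.328 to 102.5 CPM against 2026 to 7156 in proliferating myofibroblasts, over the 6 mice other than the females of E18.5 and P1.

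**Figure D1:**
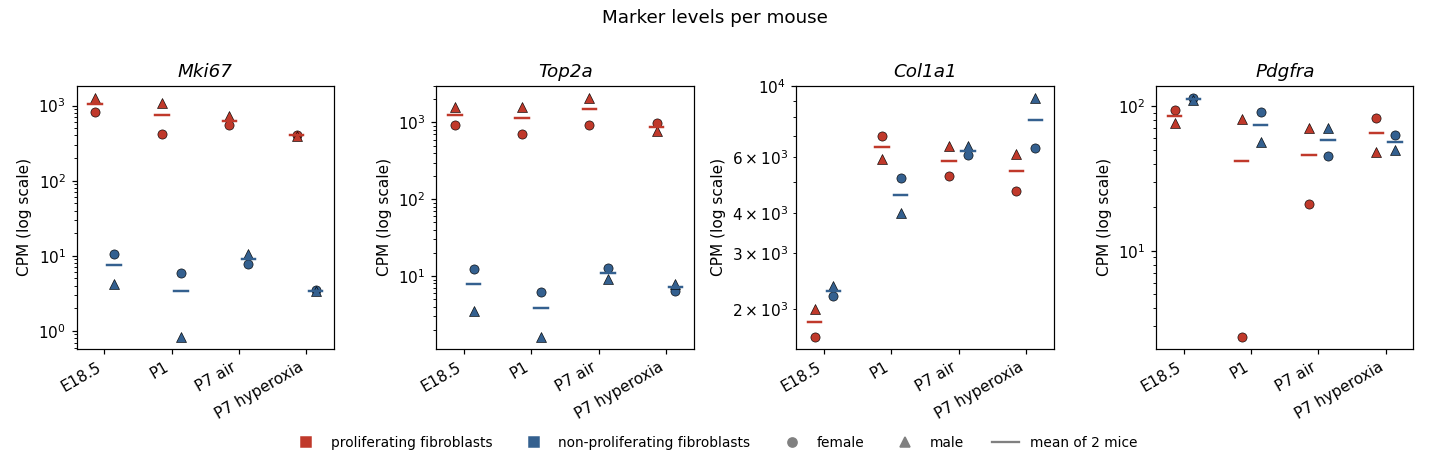
Levels of Mki67, Top2a, Col1a1 and Pdgfra per mouse in CPM on a log axis, for proliferating fibroblasts (red) and other fibroblasts of the same mice (blue), with females as circles, males as triangles and bars at the mean of the 2 mice. Mki67 and Top2a separate the classes in every mouse, while Col1a1 and Pdgfra overlap.

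Markers of other cell types were low in the proliferating cells, apart from contractile genes. Summed over each marker list (CPM without scaling), epithelial genes came to 0.101 to 134.5 in proliferating and 42.4 to 110.8 in other fibroblasts, endothelial genes to 71.9 to 172 and 91.2 to 183, and immune genes to 0 to 263.4 and 5.87 to 55.4. Pericyte genes came to 65.8 to 401 and 157 to 455, mesothelial genes to 0 to 60.3 and 71.5 to 405, and erythroid genes to 0 to 7.54 and 1.05 to 8.33. Contractile genes ranged from 928 to 8340 in proliferating and from 1768 to 4895 in other fibroblasts. The highest immune sum was that of the male P7 mouse, which also held 1 of the 2 cells with over 100 CPM of the endothelial gene Pecam1 (341.3 CPM, with 47.3 CPM of the leukocyte gene Ptprc). The other was a male hyperoxia cell at 206.3 CPM. Neither had a read of Cdh5 or Epcam. In thinned cells Epcam was seen in 0.649% of proliferating fibroblasts and 0.289% of the others, and Pecam1 in 2.60% and 3.25%.

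Among all cells with a fibroblast label, the subtype Male hyperoxic fibroblast included, the proliferating share was 7.0% (35 of 500; Wilson 95% interval 5.08 to 9.58) and 6.73% (28 of 416; 4.70 to 9.56) at E18.5. It was 1.18% (6 of 509; 0.541 to 2.55) and 1.28% (6 of 467; 0.590 to 2.77) at P1. At P7 it was 5.99% (17 of 284; 3.77 to 9.38) and 2.88% (6 of 208; 1.33 to 6.15), and in hyperoxia 6.69% (23 of 344; 4.50 to 9.83) and 8.02% (36 of 449; 5.85 to 10.9). Both E18.5 mice lay above both P1 mice, and both hyperoxia mice above both P7 air mice. The second order did not hold on the second plate of each mouse alone. There the female P7 air mouse (6.29%) lay above both hyperoxia mice (5.77% and 6.28%). The intervals cover counting error within a mouse and compare no groups. At P21, 0 of 343 and 0 of 160 fibroblasts allow shares of up to 0.875% and 1.88%. With 2 mice a group no test of the share was made. The sort can set these shares, and cells were counted, not tissue.

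Within the label, cells differed in their levels of replication and mitotic genes. The summed level of replication genes per cell ran from 0 to 9992 CPM with a median of 1870, and was above 1000 CPM in 103 of 157 cells and 0 in 4. The summed level of mitotic genes ran from 1203 to 40730 CPM with a median of 16200. No cell was without mitotic reads. By mouse, the median sum of replication genes lay between 1178 (female E18.5) and 4582 CPM (male P7), and that of mitotic genes between 10720 (female P1) and 22340 CPM (male E18.5).

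More genes were seen per proliferating cell than per other fibroblast at equal depth. At 100000 reads, the medians were 3426 against 3187 and 3329.5 against 3278.5 genes at E18.5, 4140 against 2534.5 and 4457 against 2616 at P1, 3094 against 2339 and 2941.5 against 2098 at P7, and 4167 against 3709 and 4868 against 4405 in hyperoxia. The proliferating median was higher in 8 of 8 mice, and 3 proliferating and 96 other cells were too shallow to be counted. In hyperoxia both classes had more genes than in normal air.

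How the label relates to expression was described without a test, since how the label was made was not given and it may rest on the same expression. Of 7838 genes at 20 CPM or more in either class, 204 (2.60%) were at least 2-fold higher in proliferating than in other fibroblasts in all 8 mice, and 20 (0.255%) at least 2-fold lower. Of the 204, 69 were in the 151 genes of the division lists and 135 in none. A further count, of genes higher in all 8 mice by any amount, came to 503 (6.42%), and 439 (5.60%) were lower in all mice, with Msln counted although it was at 0 in both classes in 2. Over all 7838 genes the median log2 ratio was -0.14.

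Mitotic genes led the difference. All 25 spindle and chromosome genes at 20 CPM were 2-fold higher in all 8 mice, with a median log2 ratio of 7.00. The 18 mitotic kinases, cyclins and their partners had 13 such genes and a median of 6.67. Ccna2, the cyclin of S phase and G2, was at 326.8 to 651.2 CPM in proliferating and 0.444 to 9.17 CPM in other fibroblasts. Aurkb, the kinase of the chromosomal passenger complex, was at 231.2 to 678.9 CPM against 0.00838 to 4.32. Cdk1, the main mitotic kinase, had a background in the other fibroblasts of 14.9 to 52.5 CPM, against 466.7 to 1081 in proliferating cells. Ccnb1, the cyclin that Cdk1 needs to enter mitosis, was at 24.1 CPM in the male P7 mouse and 115.7 to 494.1 in the other mice, against at most 1.37. Pttg1, securin, stood apart from its list with a median log2 ratio of -0.30 and a higher level in 3 of 8 mice.

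The 12 genes with the largest median ratios were named by size alone. Ankle1, a DNA endonuclease, led at 35.1 to 303.7 CPM against 0.00282 to 2.00. Cdc25c, the phosphatase that switches on Cdk1, was at 50.2 to 268.0 CPM against 0.0101 to 0.766. Aspm, a spindle pole protein, was at 113.5 to 238.2 CPM against 0.0314 to 2.08. Iqgap3, Gas2l3, Ska1, Kif14, Bub1, Mxd3, Spag5 and Depdc1a completed the list with Ccnb1-ps, a pseudogene of Ccnb1 whose reads the counting could not surely part from its parent.

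Replication genes differed less and were present in the other fibroblasts too. Of 14 licensing genes at 20 CPM, which load and fire the replicative helicase, 4 were 2-fold higher in all mice, with a median log2 ratio of 1.93. Of 17 synthesis genes there were 5, with a median of 1.88, and of 13 nucleotide supply genes 4, with a median of 1.45. Pcna, the sliding clamp of DNA polymerases, was at 85.5, 206.4, 230.2, 280.4, 223.4, 297.0, 124.0 and 147.8 CPM against 35.6 to 89.4 in other fibroblasts, higher in 8 of 8 mice. Rrm2, a subunit of ribonucleotide reductase, was at 108.2 to 667.9 CPM against 3.61 to 45.5. Of 14 chromatin and tubulin genes, 11 were 2-fold higher, with a median of 2.17, and Stmn1, a tubulin-binding protein, was at 785.3 to 1570 CPM against 28.5 to 91.5.

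The genes of G1 did not move as a block. Ccnd2, the D-type cyclin that starts the cycle with Cdk4 and Cdk6, was lower in proliferating cells of every mouse, at 27.2, 28.1, 172.5, 123.0, 229.2, 343.0, 117.6 and 117.2 CPM against 224.4, 217.2, 382.3, 384.7, 613.5, 742.2, 653.1 and 617.1, a median log2 ratio of -2.02. Cdkn2d, the inhibitor p19 of the same kinases, was higher in every mouse, at 80.7 to 713.8 CPM against 19.0 to 34.6. Ccnd3 and Cdkn1b were each higher in 4 of 8 mice.

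**Figure D2:**
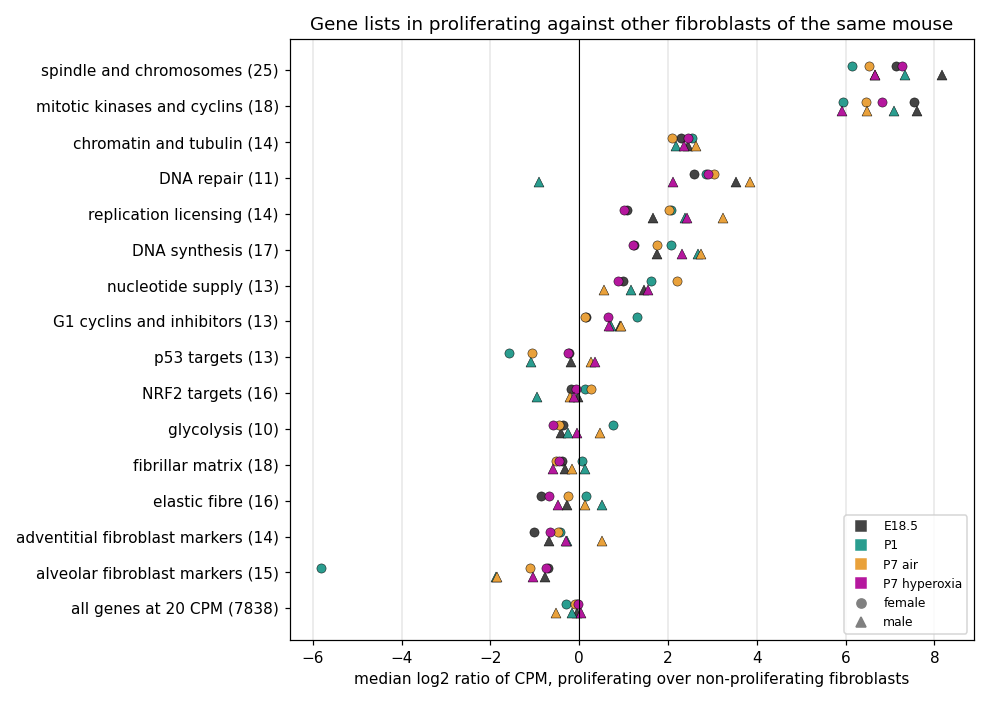
Median log2 ratio of proliferating over other fibroblasts for each gene list, 1 point per mouse, with the number of genes at 20 CPM in brackets. The spindle list lies at 6.14 to 8.18, the licensing list at 1.01 to 3.24, and the fibrillar matrix list at -0.58 to 0.14.

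Fewer genes were lower than higher at the 2-fold limit, and the 12 lower genes named by size had low levels in proliferating cells. Gstm7, a glutathione transferase, averaged 2.22 CPM against 28.5 in other fibroblasts, and had 0 reads in 5 of 8 proliferating libraries. Mvd, an enzyme of sterol synthesis, averaged 4.31 against 25.2 CPM. Pnpla2, the lipase that opens triglyceride stores, averaged 3.78 against 25.7 CPM, and Klf15, a glucocorticoid-responsive transcription factor, 13.5 against 37.8. Msln, a mesothelial gene, had no read in any proliferating library and 0 to 142.0 CPM in the others. It was at 0 in both classes in 2 mice and so did not have the same sign in all mice. Chst8, Serpina3c, Klc4, As3mt, Klhl3 and Mettl21e were also among the 12 named by size, with means of 1.22 to 12.1 CPM against 20.5 to 60.8. Gstm7 and Serpina3c have close copies in the genome that can share reads. Both P1 libraries and the male P7 library rest on 6 cells, and most of the zeros were theirs.

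Matrix genes were close to the level of the other fibroblasts. The 18 fibrillar matrix genes at 20 CPM had a median log2 ratio of -0.31 and the 16 elastic fibre genes -0.18, with none 2-fold apart in all mice. The 10 glycolysis genes had a median of -0.11 and 13 p53 targets -0.20. The 15 alveolar fibroblast markers were lower, with a median of -1.05 and 9 of 15 lower in all 8 mice, against 439 of 7838 (5.60%) of all genes. Ces1d, a lipid-cleaving carboxylesterase, was at 120.9, 157.3, 0, 0, 29.9, 0.455, 34.5 and 17.1 CPM against 216.9 to 600.9. The 14 adventitial markers had a median of -0.42.

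Alveolar and adventitial markers set the proliferating cells of E18.5 apart from those after birth. The log2 ratio of the summed alveolar over the summed adventitial markers was 2.29 and 2.24 at E18.5, beside 1.96 and 2.07 in fibroblast precursors. It was -2.28 and -1.16 at P1, -0.14 and -1.53 at P7 and -0.48 and -0.81 in hyperoxia, and the P1 and P7 mice overlapped. Early alveolar fibroblasts lay at 1.05 to 1.86 and early adventitial ones at -3.70 to -1.72 over all mice. Cell by cell, alveolar markers exceeded adventitial markers in 32 of 35 and 25 of 28 proliferating fibroblasts at E18.5, 0 of 6 and 1 of 6 at P1, 10 of 17 and 3 of 6 at P7 and 16 of 23 and 19 of 36 in hyperoxia. The P1 cells thus leaned to the adventitial side, and those of P7 and hyperoxia lay on both sides of 0. Within 1 log2 unit of 0 were 3 of 17 and 0 of 6 cells at P7 and 8 of 23 and 13 of 36 in hyperoxia. More adventitial-type cells and a lower alveolar level per cell cannot be told apart in the summed libraries.

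**Figure D3:**
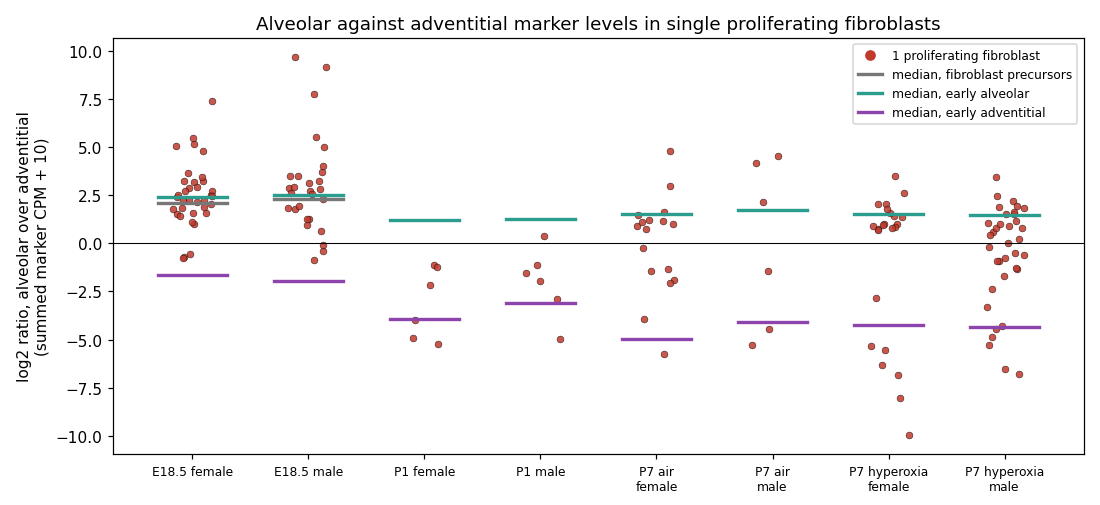
Log2 ratio of summed alveolar over summed adventitial marker CPM (10 CPM added to each) for every proliferating fibroblast by mouse, with lines at the medians of precursors, early alveolar and early adventitial fibroblasts. The E18.5 cells lie mostly above 0, 11 of the 12 P1 cells below 0, and the P7 and hyperoxia cells on both sides.

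Mfap5, Igfbp7, Sparc and Lgals1 rose in the proliferating cells from E18.5 to P1. Between E18.5 and P1, 16 of 12656 genes (0.126%) passed edgeR's quasi-likelihood test at a Benjamini-Hochberg adjusted p under 0.05, 15 higher (0.119%) and 1 lower (0.0079%). DESeq2 called 374 higher (3.17%) and 623 lower (5.28%). At an unadjusted edgeR p under 0.05, 2.8% of genes were higher and 3.84% lower. The P1 libraries hold 6 cells each, and the median log2 change of all genes was -0.41. Scaling by DESeq2's size factors moved that median by 0.106, so list medians are given beside it.

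Mfap5, a glycoprotein of elastic microfibrils, was at 2.79 and 5.42 CPM at E18.5 and 2041 and 2578 at P1. The P1 mice lay far above those of E18.5, and it rose by 9.24 on the log2 scale (SE 0.67, edgeR adjusted p = 0.00106). It was seen in 2 of 35 and 1 of 28 cells at E18.5 and in 5 of 6 and 6 of 6 at P1. Igfbp7, an insulin-like growth factor binding protein, went from 49.7 and 74.9 to 1040 and 1311 CPM, a log2 change of 4.32 (SE 0.43, edgeR adjusted p = 0.00572).

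Sparc, a collagen-binding matrix protein, was at 1847 and 2099 CPM in E18.5 mice and 12600 and 10810 in P1 mice, changing by 2.63 on the log2 scale (SE 0.37, edgeR adjusted p = 0.0302). Lgals1, galectin-1, was at 1145 and 1444 CPM and then 9297 and 7068, a log2 change of 2.74 (SE 0.39, edgeR adjusted p = 0.0302). Neither gene's groups overlapped, yet both calls were lost when any 1 of the 4 mice compared was left out. In the other fibroblasts of the same mice Mfap5 was at 11.3 and 19.3, then 1533 and 779.6 CPM, and Sparc at 2999 and 3089, then 8435 and 8346. These cells were precursors alone at E18.5, without 26 and 29 early adventitial cells, but included 138 and 67 early adventitial cells at P1, so age and the makeup of the comparison cells cannot be told apart.

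The other genes that passed had at most 3 reads in one group, so their size is a bound or rests on counting. Several are more often seen in early adventitial than in early alveolar fibroblasts: over all mice, at 100000 reads a cell, C1qtnf3 in 27.7% against 4.84%, Osr2 in 31.8% against 1.70% and Cd9 in 38.1% against 2.29%. Igfbp2 was seen in 19.0% against 0.588%, Cpz in 54.3% against 10.3% and Mfap5 in 89.0% against 29.7%. The P1 cells lay mostly on the adventitial side (11 of 12) and the E18.5 cells on the alveolar side (32 of 35 and 25 of 28), and the part of this in the calls was not tested. Mfap5 is itself on the adventitial marker list that set these sides, so its rise and the sides are not independent. C1qtnf3, a secreted C1q-like protein, had no read at E18.5 and 415.1 and 5081 CPM at P1, at least 68560-fold higher with 3 reads over the E18.5 group as a floor (edgeR adjusted p = 0.00572). That bound pools the reads of both P1 mice, most of them the male's, and the female alone gave at least 7252-fold. It was seen in 3 of 6 and 4 of 6 P1 cells, of which 1 held 76.7% of the female's reads and 1 held 84.9% of the male's. Osr2, a zinc-finger transcription factor, had no read at E18.5 and 237.2 and 942.4 CPM at P1, at least 13410-fold higher (edgeR adjusted p = 0.00572), or 4144-fold from the female alone. Kcnj8, a potassium channel subunit that also marks pericytes, was at least 4307-fold higher (1236-fold from the female alone) and lost its call without the male E18.5 or the male P1 mouse. The pericyte markers together summed to 114.4 and 292.5 CPM before birth and 191.0 and 386.9 at P1, and their part was not tested.

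Fez1 was at least 3986-fold higher (1749-fold from the female alone), and Efemp1, an elastic fibre protein, at least 1774-fold (774.2-fold). Fez1 lost its call without the male P1 mouse, and Efemp1 without either P1 mouse or without the male P7 mouse. With 1 to 3 reads at E18.5, the ratio was 4488 for Cd9 (95% interval 1534 to 21770), a tetraspanin, 8408 for Ecm1 (1507 to 332300), extracellular matrix protein 1, and 65580 for Igfbp2 (11770 to 2591000), another binding protein of insulin-like growth factors. These intervals cover counting error only, not the spread between mice. At P1, Igfbp2 was seen in 1 of 6 and 2 of 6 cells, Efemp1 in 2 of 6 and 1 of 6, Cd9 in 2 of 6 and 5 of 6 and Ecm1 in 5 of 6 and 5 of 6. C1qtnf2, Npdc1 and Cpz, a carboxypeptidase, also rose. Igfbp2 lost its call without the male P1 mouse, and Npdc1 without either E18.5 mouse, the female mouse of P1 or the male of P7. Fam213a, a redox protein, was the 1 gene that fell, from 246.9 and 162.3 CPM to 0 and 0, at least 862.6-fold lower (edgeR adjusted p = 0.0393), a call lost without the female E18.5 mouse, either P1 mouse, the male hyperoxia mouse or the 2 cells with Pecam1 reads named above.

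Of 19 fibrillar matrix genes tested, 13 were above both E18.5 mice in both P1 mice, against 13.8% of all genes, with a median log2 change of 1.45. Sparc passed the test, and 9 had an unadjusted edgeR p under 0.05. Of 16 elastic fibre genes, 11 were above and 1 below, with a median of 1.33, and Mfap5 and Efemp1 passed. Eln, elastin itself, was at 1011 and 1164 CPM and then 2908 and 6942, a log2 change of 2.10 that missed the threshold (edgeR adjusted p = 0.156). Of 15 adventitial markers, 10 were above and none below, with a median of 2.07. Mfap5, which is on this list too, was the 1 that passed.

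Alveolar markers ran the other way, with 10 of 15 below both E18.5 mice and none above, against 27.8% of all genes below, and a median of -2.16. None passed edgeR's test, and DESeq2 called 4 of the 15 lower (26.7%, against 5.28% of all genes), Ces1d, Gyg, Plin2 and Slc7a10. Gyg, glycogenin, was at 3135 and 3867 CPM at E18.5 and 332.2 and 646.3 at P1 (log2 change -2.77, edgeR adjusted p = 0.119). Plin2, a coat protein of lipid droplets, was at 968.1 and 454.3 and then 24.6 and 102.5 CPM, and the groups did not overlap (log2 change -3.39, edgeR adjusted p = 0.235). Contractile genes of other cell types summed to 2068 and 2371 CPM at E18.5 and 8340 and 4935 at P1 in these cells, with 5 of 10 genes above and 4 below in both mice, and their part in these values was not tested.

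No gene of the division lists passed edgeR's test between E18.5 and P1. Of 13 G1 genes DESeq2 called Ccnd1, Ccnd2 and Cdkn1a higher (23.1%, beside 3.17% of all genes) and Cdkn1b lower (7.69%, beside 5.28%). Of 16 DNA repair genes it called Fanci and Xrcc2 lower (12.5%). It called none in the other division lists. Ccnd1 was seen in 1 of 35 and 1 of 28 cells at E18.5 and in 3 of 6 and 1 of 6 at P1. In the female P1 mouse 1 cell held 94.3% of the Cdkn1a reads. The 26 spindle genes had a median log2 change of -0.24, the 18 mitotic kinases and cyclins -0.25, the 15 licensing genes -0.06 and the 18 synthesis genes 0.82. Ccnd2 was 1 of 4 G1 genes with a higher level at an unadjusted p under 0.05 (log2 change 2.49, edgeR adjusted p = 0.318).

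**Figure D4:**
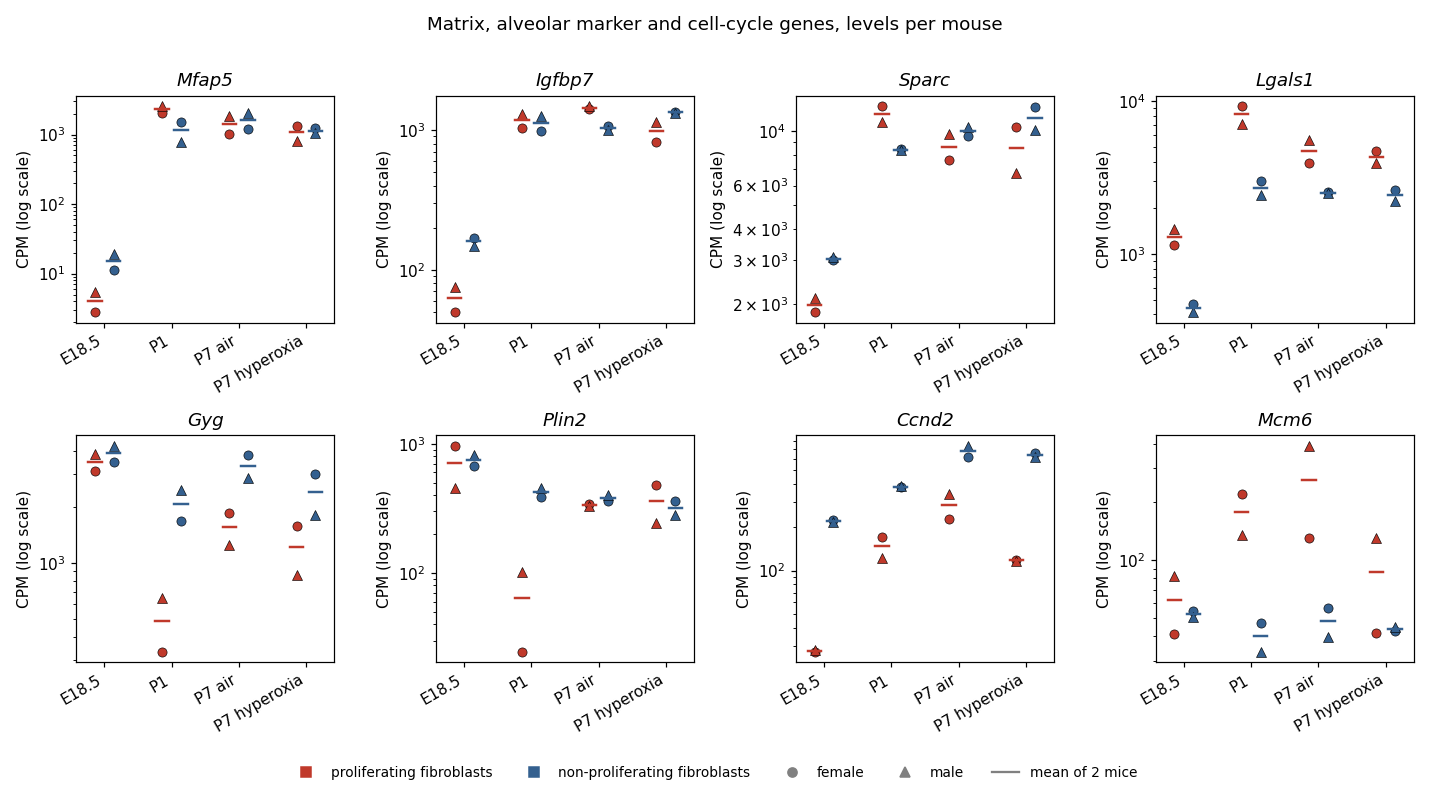
Levels per mouse, in CPM, of Mfap5, Igfbp7, Sparc and Lgals1, alveolar marker genes (Gyg, Plin2) and cell-cycle genes (Ccnd2, Mcm6) in proliferating (red) and other fibroblasts (blue). In proliferating fibroblasts Mfap5, Igfbp7, Sparc and Lgals1 are higher in every mouse after birth than at E18.5, and Gyg is highest at E18.5.

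At P7 Mfap5 and Igfbp7 again stood above E18.5. In this comparison 11 of 12656 genes passed edgeR's test, all higher (0.0869%), and DESeq2 called 337 higher (2.93%) and 380 lower (3.31%). At an unadjusted edgeR p under 0.05, 2.77% were higher and 2.57% lower. The comparison shares its E18.5 mice with that of P1. Mfap5 stood at 1003 and 1837 CPM, 8.50 higher on the log2 scale (SE 0.65, edgeR adjusted p = 0.00175), and Igfbp7 at 1406 and 1488, 4.62 higher (SE 0.44, edgeR adjusted p = 0.00489). The 9 others were Osr2, C1qtnf3, Efemp1, Igfbp2, C1qtnf2, Npdc1, Cpz, Cd9 and Ecm1. Igfbp2 was seen in 1 of 17 and 1 of 6 P7 cells, and Osr2 and Efemp1 each in 3 of 17 and 1 of 6. In the male P7 mouse 1 cell held from 58.5% (Cpz) to 100% of the reads of each of the 9 genes. The calls of Efemp1 and Npdc1 were lost without the male P7 mouse. Npdc1 was also lost without the female E18.5 mouse, Igfbp2 without the male P1 mouse and Ecm1 without the female P1 mouse. Without a term for sex, Osr2 and Igfbp2 lost their calls in both comparisons, Kcnj8 in that of P1, and C1qtnf3 and Ecm1 in that of P7. Without the female P7 mouse 48 genes passed, and without the male E18.5 mouse 23.

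Of 15 licensing genes, 11 were above both E18.5 mice in both P7 mice, where 13.5% of all genes were, with a median log2 change of 1.13 beside -0.30 for all genes. Mcm6, a subunit of the replicative helicase, was at 41.1 and 82.8 CPM at E18.5 and 129.9 and 392.3 at P7, without overlap (log2 change 2.05, edgeR adjusted p = 0.848). It was seen in 7 of 17 and 3 of 6 P7 cells, of which 1 held 37.3% of the female's reads and 1 held 77.1% of the male's. The 18 synthesis genes had 9 above and a median of 0.94. The 26 spindle genes had a median of -0.03, whose sign depended on the scaling (0.07 with DESeq2's size factors). Adventitial markers had 13 of 15 above and a median of 3.45, fibrillar matrix genes 13 of 19 and 1.23, and alveolar markers 7 of 15 below, against 24.5% of all genes, and -1.14. The adventitial markers include Mfap5. H19, an imprinted RNA that is silenced after birth in many tissues, was at 151.0 and 398.8 CPM in the E18.5 mice, 255.4 and 135.6 in the P1 mice and 0.959 and 0 in the P7 mice (P7 against E18.5, edgeR adjusted p = 0.0735).

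From P1 to P7 none of 12656 genes passed edgeR's test (0.0%), with 455 higher (3.6%) and 318 lower (2.51%) at an unadjusted p under 0.05, and DESeq2 called 538 (4.56%) and 373 (3.16%). Alveolar markers were above in 5 of 15 and below in none, beside 14.9% of all genes above, with a median log2 change of 1.82. Gyg was at 1850 and 1252 CPM at P7, and Npnt, nephronectin, went from 75.2 and 131.2 to 434.7 and 385.3. For both genes the P7 mice lay above the P1 mice without overlap.

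In hyperoxia most p53 targets stood higher than in normal air and most licensing genes lower, but no gene passed the test. None of 12656 genes (0.0%) had an edgeR adjusted p under 0.05, 319 were higher (2.52%) and 126 lower (0.996%) at an unadjusted p under 0.05, and DESeq2 called 348 higher (2.95%) and 64 lower (0.542%). The all-gene median log2 change was 0.40, and 26.3% of all genes were above in both mice. Of 17 p53 targets, 12 were above both air mice in both hyperoxia mice and none below, with a median of 2.88 and 7 at an unadjusted p under 0.05. DESeq2 called 3 of the 17, Pmaip1, Sesn2 and Zmat3. The male air library rests on 6 cells, the hyperoxia cells had more genes per cell at equal depth (above), and the part of either in these values was not tested.

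Cdkn1a, the inhibitor p21, was at 66.0 and 438.5 CPM in air and 929.8 and 1825 in hyperoxia, with both hyperoxia mice above both air mice (log2 change 2.88, edgeR unadjusted p = 0.00113, adjusted p = 0.992). In the other fibroblasts of these mice it was at 86.7 and 106.0, then 868.7 and 964.7 CPM. Thinned to 100000 reads, 17.6% (3 of 17) and 33.3% (2 of 6) of proliferating cells had a Cdkn1a read in air and 87.0% (20 of 23) and 83.3% (30 of 36) in hyperoxia, and without thinning 23.5%, 33.3%, 87.0% and 83.3%. Cells with reads of both Mki67 and Cdkn1a made up 78.3% (18 of 23) and 83.3% (30 of 36) in hyperoxia. Cdkn1a stood at 15.3 and 115.4 CPM in the E18.5 mice and 295.8 and 579.2 in those of P1. Single cells carried much of these levels. The top cell held 81.0% and 97.8% of the Cdkn1a reads in the E18.5 mice and 94.3% and 73.1% in the P1 mice. It held 54.0% and 76.7% in the P7 air mice and 15.9% and 11.4% in the hyperoxia mice. Summed over the 17 p53 targets, levels were 3237 and 2957 CPM in E18.5 mice, 2032 and 3661 in P1 mice, 1209 and 1691 in P7 air mice and 2653 and 5827 in hyperoxia mice. The air mice of P7 were thus the lowest, and the female hyperoxia mouse lay below both E18.5 mice.

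The other 6 targets at an unadjusted p under 0.05 had the same order. Phlda3, an inhibitor of Akt signalling, was at 84.8 and 70.9 CPM in air and 291.0 and 505.8 in hyperoxia (edgeR unadjusted p = 0.00519, adjusted p = 0.992). Bax, a pore-forming protein of apoptosis, was at 31.3 and 92.7, then 226.3 and 222.3 CPM. Ccng1, cyclin G1, was at 14.3 and 0, then 139.2 and 316.8 CPM. None of these groups overlapped. Zmat3, an RNA-binding zinc-finger protein, was at 0.816 and 0 CPM in air and 46.7 and 80.8 in hyperoxia. Sesn2, a stress-induced regulator of mTORC1, was at 0 and 0, then 32.6 and 87.0 CPM, and Pmaip1, the apoptosis activator Noxa, at 0.0480 and 0.152, then 28.5 and 132.5. No fold is given for Sesn2, which had no read in air. The 18 NRF2 targets, antioxidant genes, had 3 above and 2 below, with a median of -0.26.

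Replication genes stood lower in hyperoxia than in normal air at P7, and mitotic kinases moved both ways. Of 15 licensing genes, 11 were below both air mice in both hyperoxia mice and none above, against 12.3% of all genes below, with a median log2 change of -1.22. Of 18 synthesis genes, 9 were below and none above, with a median of -0.80. Summed over the 15 licensing genes, levels were 847.5 and 1215 CPM in E18.5 mice and 1254 and 1294 in P1 mice. They were 1635 and 2449 in P7 air mice and 671.0 and 1096 in hyperoxia mice. The air mice of P7 were thus the highest, and the male hyperoxia mouse lay between the E18.5 mice. Cells above 1000 CPM of replication genes were 10 of 17 and 4 of 6 in air and 14 of 23 and 27 of 36 in hyperoxia. Cdc45, the helicase cofactor, was at 208.8 and 229.0 CPM in air and 59.9 and 76.5 in hyperoxia (log2 change -1.76, edgeR unadjusted p = 0.0369, adjusted p = 0.992). Lig1, the ligase that joins Okazaki fragments, was at 223.4 and 521.6, then 78.1 and 80.7 CPM. Slbp, which binds the stem-loop of histone mRNA, was at 418.6 and 671.3, then 167.8 and 262.7. All 3 genes separated the groups without overlap. The 18 mitotic kinases and cyclins had 3 above, 3 below and a median of 0.14, whose sign turned when mice were left out (-0.35 to 0.62), and the 26 spindle genes had 4 above and 10 below with a median of -0.47. Mki67 was at 543.3 and 715.8, then 402.1 and 398.9 CPM (edgeR adjusted p = 0.992).

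Of 16 elastic fibre genes, 7 were below and 1 above, with a median of -0.68. Eln was at 1971 and 2390 CPM in air and 492.4 and 1334 in hyperoxia (log2 change -1.46, edgeR unadjusted p = 0.00675, adjusted p = 0.992), without overlap. Mfap2, a microfibril glycoprotein, was at 1576 and 2416, then 1184 and 723.7 CPM, and Ltbp1, which stores latent TGF-beta in the matrix, at 201.3 and 1073, then 78.9 and 95.8. Fibrillar matrix genes had 3 above and 3 below and a median of -0.19. Ccnd2 was at 229.2 and 343.0, then 117.6 and 117.2 CPM (log2 change -1.34, edgeR adjusted p = 0.992), and H19 at 0.959 and 0, then 66.4 and 96.4.

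**Figure D5:**
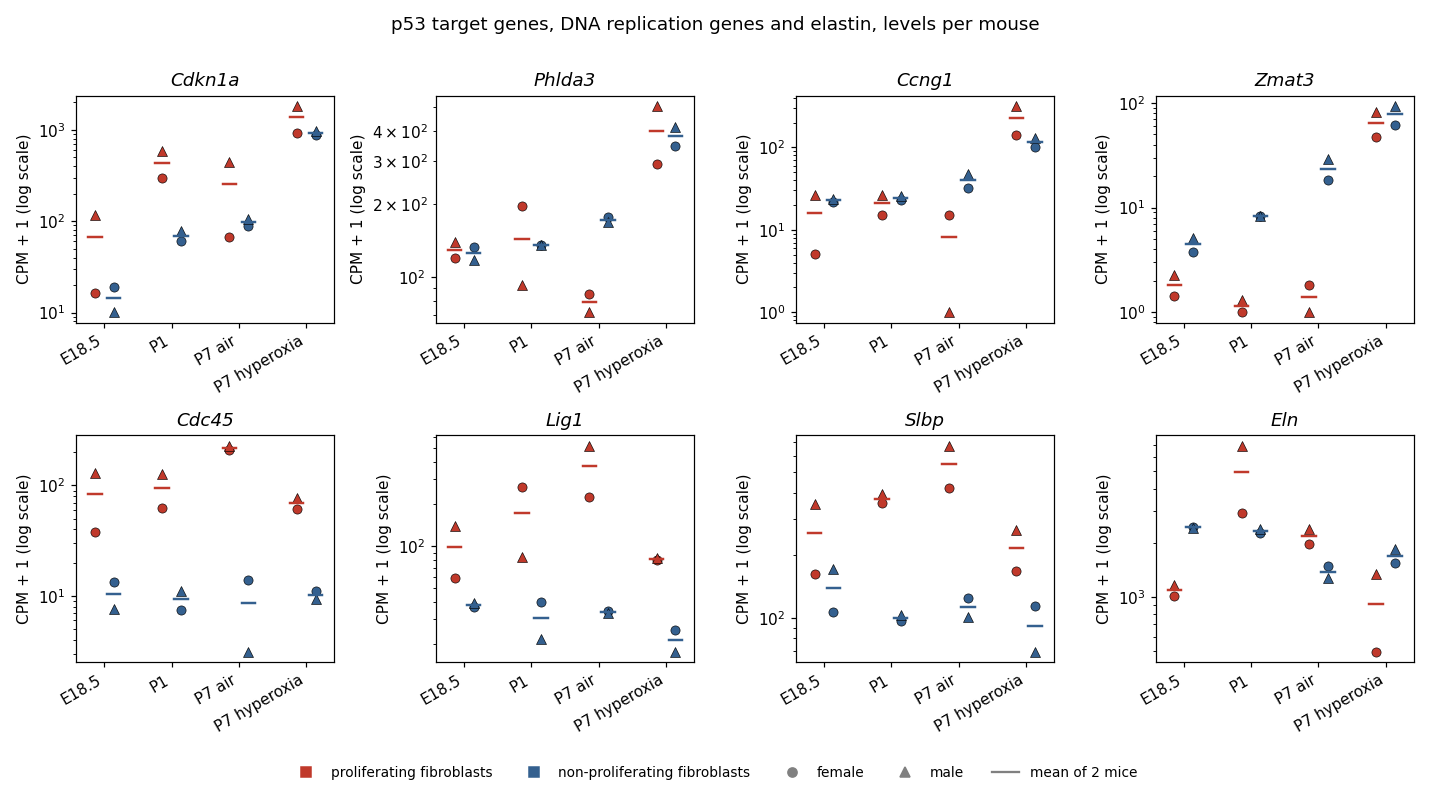
Levels per mouse (CPM + 1) of p53 targets (Cdkn1a, Phlda3, Ccng1, Zmat3), replication genes (Cdc45, Lig1, Slbp) and Eln in proliferating (red) and other fibroblasts (blue), by group. In proliferating fibroblasts the 4 p53 targets are higher in both hyperoxia mice than in both P7 air mice, and the replication genes and Eln lower.

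Whether proliferating and other fibroblasts changed differently was asked of the interaction of class with group in 16421 genes. None passed edgeR's test in any of the 4 comparisons (0.0% each). With early alveolar and early adventitial cells as the comparison at E18.5 too, 55 passed for P1 against E18.5 and 29 for P7 against E18.5. The counts at an unadjusted p under 0.05 were 853 for P1 against E18.5, 870 for P7 against P1, 680 for P7 against E18.5 and 591 for hyperoxia, and DESeq2 called 785, 943, 645 and 550. The counts also changed without the female P7 mouse, when 365, 315 and 318 genes passed for P7 against P1, P7 against E18.5 and hyperoxia. For P1 against E18.5, up to 28 genes passed when a mouse was left out. For Cdkn1a the interaction with hyperoxia was -0.32 on the log2 scale and ran from -1.51 to 0.93 with a mouse left out.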

How the data were processed

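Single cells sorted from mouse distal lung were sequenced from plates with Tn5-made libraries, per the labels' protocols, and no molecular identifiers are named there. The authors deposited a table of read counts for 18072 genes in 5480 cells. The submitters' processing notes name STAR 2.5.2b, HTSeq 0.10 and the build GRCh38, which is a human build. How the subtype labels were made was not given in the sources used here. No count column was left out.

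Counts were summed over the proliferating fibroblasts of each mouse, and separately over the other fibroblasts, giving 8 mice with 5 or more cells. The mouse was the replicate, with 2 mice a group. The p-values set a change against the spread between mice, estimated over all groups. The fit of proliferating cells left 3 residual degrees of freedom and the interaction fit 4. That spread includes the sampling of cells in each library. Genes were filtered by edgeR's filterByExpr, scaled by TMM and tested with edgeR 4.0.16 (quasi-likelihood, two-sided, sex and group as terms, all groups in 1 fit) in R 4.3.3, with Benjamini-Hochberg adjustment at 0.05. The interaction fit had the mouse as a block. DESeq2 1.42.0 and limma 3.58.1 were alternatives. Both edgeR fits were tested on simulated counts.

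Named genes were, per comparison, the 10 largest rises and falls among genes past the threshold with 10 CPM in 1 group and the same sign in both sexes, and for the class difference the 12 largest median ratios each way among genes at 20 CPM with the same sign in all mice (Msln, at 0 in both classes in 2 mice, was kept). One gene that the rule names is not reported here. Genes of the lists were named with their values. The members and the lists were chosen with earlier results of these data known. RefSeq promoters were matched by symbol.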

Additional observations from a re-analysis of the deposited data

Results flagged for a closer look

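In 3 cases the gene lists of proliferating fibroblasts lay below those of the other fibroblasts in both mice of one group and above them in both mice of another. None of these differences was tested. The median log2 ratio of fibrillar matrix genes, proliferating over other fibroblasts, was -0.39 and -0.31 at E18.5 and 0.06 and 0.14 at P1, a difference of 0.45. The same list fell back to -0.52 and -0.16 at P7, a difference of -0.44 from P1. For elastic fibre genes the median was -0.86 and -0.28 at E18.5 and 0.15 and 0.52 at P1, a difference of 0.90. The P1 values rest on 6 cells a mouse.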

How the results depend on the processing

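Counts of called genes moved with the tool, the filter and the mice. For P1 against E18.5, P7 against P1, P7 against E18.5 and hyperoxia, DESeq2 called 997, 911, 717 and 412 genes, and for the 4 interactions in the same order 785, 943, 645 and 550. Without a filter on low counts edgeR called 66, 3 and 47 for the 3 age comparisons and 16 for the P1 interaction. With only the mice of the 2 groups compared it called 31, 1 and 31 for the 3 age comparisons. limma on mean CPM called 1 for P7 against P1, and mice with at least 10 cells gave 33 for P7 against E18.5. With the mesenchymal sort alone, 1 gene passed for each of the interactions P7 against P1 and P7 against E18.5. With early alveolar fibroblasts alone as reference 6 passed for the P1 interaction and 1 for that of P7 against E18.5, and with early alveolar and adventitial cells as the reference at E18.5 too, 55 and 29. With 1 mouse left out the counts ran from 14 to 22, 0 to 1, 12 to 48 (23 without the male E18.5 mouse) and 0 to 1, and for the interactions from 0 to 28, 0 to 365, 0 to 315 and 0 to 318. The cause was not tested.

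The share of proliferating fibroblasts was 5.21%, 1.0%, 1.93% and 5.53% of all mesenchymal cells at E18.5, P1, P7 and hyperoxia. It was 8.15%, 1.45%, 4.23% and 8.59% of fibroblasts on the first plate and 5.68%, 1.05%, 4.65% and 6.02% on the second, in the same order. With a 4-fold limit, 135 genes were higher and 1 lower in all mice.

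The median of mitotic kinases and cyclins in hyperoxia changed from 0.14 to -0.19 with at least 10 cells a mouse, to -0.19 and -0.35 without the male air or the female hyperoxia mouse, to 0.62 without the female air mouse, and to -0.04 without the 2 cells with Pecam1 reads, a choice made after seeing the data. The interaction of Cdkn1a with hyperoxia was -1.51 without the female air mouse, 0.93 without the male air and 0.13 without the female hyperoxia mouse. The spindle median of P7 against E18.5 turned to 0.07 with DESeq2 and with its size factors, 0.13 without the male E18.5 mouse and 0.16 without those cells. P1 gave no value with at least 10 cells a mouse. The labels number no replicates across groups, so no fit had a block for them, and sex was a term in the fits of proliferating cells.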
